A study of Homo sapiens with 6 samples.

Results

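The genes described here are 10 regulators and markers of the plasma cell, the antibody-secreting end stage of the B cell lineage. They were chosen by name and found by Entrez identifier, with 1 row each, in a count table of 23459 genes. They comprise the transcription and elongation factor genes PRDM1, XBP1, ZBTB20 and ELL2, the kinase gene PIM2, the RNA enzyme gene TENT5C (formerly FAM46C), the surface protein genes CD38 and SDC1, and the antibody assembly genes MZB1 and JCHAIN. Expression was measured by stranded, poly(A)-selected RNA-seq in Raji, an established human cell line whose Burkitt's lymphoma arose from the germinal centre. The 3 control libraries came from cells given an empty lentiviral vector, and the 3 IRF4-overexpressing libraries from cells given the same kind of vector with human IRF4 cDNA. All cells of both groups were infected for 5 days and then kept in puromycin at 3 µg/ml for 7 days. The promoter that drives the cDNA is not given in the sources used here. The labels do not say whether replicates were separate infections, so the p-values reflect only how these libraries vary, and that variation may be technical.

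A plasma cell forms when an activated B cell raises IRF4 and then PRDM1 (also called BLIMP1), a repressor that shuts off genes of the B cell stage. XBP1 enlarges the secretory apparatus, and ELL2 helps RNA polymerase to produce the secreted form of the immunoglobulin heavy chain mRNA. ZBTB20 encodes a zinc finger repressor needed by long-lived plasma cells. Germinal centre B cells stand before this step and keep IRF4 low.

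The libraries held 27681979 to 46210702 counts. IRF4 checks the labels: it was at 1.02, 1.38 and 1.37 CPM (counts scaled to the same TMM-adjusted library total) in control replicates 1, 2 and 3. With the cDNA the values were 150, 120.5 and 125 CPM, a 106-fold change (edgeR adjusted p = 3.79e-05), with cDNA and cellular transcripts counted together. All 11 B cell markers were expressed, summing to 5617 to 6459 CPM in control and 5308 to 6426 CPM in IRF4-overexpressing libraries. Markers of T and NK cells (11 found) and of epithelium and kidney (8) were all too low to test, with 4 of each at 0 in every library. Myeloid markers summed to 2.81 to 3.2 CPM and 5.62 to 9.01 CPM, with MPO, ELANE, S100A9 and FCGR1A at 0 in every library. Of 4 myeloid markers tested, edgeR called 1 higher, the integrin gene ITGAM (0.652 to 2.48 CPM, edgeR adjusted p = 0.00256), against 2.98% of all genes. DESeq2 called 2 higher, against 4.78%. The second was CSF1R, named after its value was seen (0.427 to 2.22 CPM, DESeq2 adjusted p = 4.41e-04, edgeR adjusted p = 0.0846). T and NK markers summed to 0.223 to 0.465 CPM and 0.518 to 0.621 CPM, and epithelial and kidney markers to 0.0996 to 0.301 CPM and 0.349 to 0.864 CPM. These sums move with the group, and their part in the results was not tested. Within groups, 74.3% of the variance of log2 CPM lay on 1 axis. One side of it held control replicate 1 with IRF4-overexpressing replicates 2 and 3, and the opposite side held the remaining libraries.

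Promoter sequences are shown for PIM2, the member that passed the test, for PRDM1, the member with the most negative fold change, and for CD38, whose promoter holds motifs of the IRF family. They are RefSeq sequences of GRCh38.p14, from 250 bases before to 50 bases after an annotated start, read 5′ to 3′ on the gene's strand. The reads were counted on another build, and which start the cells use was not measured. Capitals mark matches, on either strand, to GAAANNGAA (core of the interferon-stimulated response element), GGAANNGAA (composite element of ETS factors and IRF4), TGANTCA (AP-1), AGNGAAAG (core of the PRDM1 element), GACGTG (core of an XBP1 element) and ATTTGCAT (the octamer, added after the promoters were read).

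PIM2, chrX:48918975-48919274, minus strand: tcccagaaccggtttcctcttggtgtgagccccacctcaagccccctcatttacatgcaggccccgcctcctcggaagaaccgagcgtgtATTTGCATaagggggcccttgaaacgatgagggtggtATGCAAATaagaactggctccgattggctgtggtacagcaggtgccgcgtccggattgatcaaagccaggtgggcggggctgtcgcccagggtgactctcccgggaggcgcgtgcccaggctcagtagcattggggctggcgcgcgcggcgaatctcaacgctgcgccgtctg
CD38, chr4:15778078-15778377, plus strand: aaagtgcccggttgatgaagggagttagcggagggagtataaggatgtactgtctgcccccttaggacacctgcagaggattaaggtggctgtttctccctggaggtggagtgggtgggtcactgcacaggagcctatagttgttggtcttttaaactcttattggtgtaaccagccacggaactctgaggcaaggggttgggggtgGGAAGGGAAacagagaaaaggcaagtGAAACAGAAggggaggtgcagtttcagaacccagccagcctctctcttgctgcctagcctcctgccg
PRDM1, chr6:106098691-106098990, plus strand: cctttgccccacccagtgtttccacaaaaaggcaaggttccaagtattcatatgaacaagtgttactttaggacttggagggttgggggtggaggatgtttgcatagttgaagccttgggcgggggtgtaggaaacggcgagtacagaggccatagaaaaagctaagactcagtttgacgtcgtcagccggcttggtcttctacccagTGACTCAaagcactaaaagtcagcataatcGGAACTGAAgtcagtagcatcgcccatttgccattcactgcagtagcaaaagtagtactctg

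The octamer, the site of the octamer factors, occurred in the PIM2 promoter in both orientations, with first bases 160 and 123 bases upstream of the start. It was in 1.77% of all 35116 promoters and in 1 of the 19 promoters of 9 members. As it was added after the promoters were read, that share is no measure of how unusual the match is. The CD38 promoter held GAAACAGAA, 17 bases upstream, and GGAAGGGAA, 43 bases upstream. GAAANNGAA was in 8.11% of all promoters and in 2 of the members' 19, those of CD38 and ZBTB20. GGAANNGAA was in 7.79% and in 2 of 19, those of CD38 and PRDM1. In the PRDM1 promoter shown, GGAACTGAA lay 12 bases and TGACTCA 42 bases upstream, and the other listed PRDM1 promoter held no match. TGANTCA was in 7.71% of promoters and in 5 of 19, from JCHAIN, PRDM1 and ZBTB20. AGNGAAAG was in 7.99% and in 1 of 19 (ZBTB20), and GACGTG in 7.81% and in 0 of 19. A match is a stretch of letters and not a bound site.

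With IRF4 raised, PIM2 rose, and no other of the 10 genes passed edgeR's quasi-likelihood test. The 8 members with enough counts to test were PRDM1, XBP1, ZBTB20, PIM2, TENT5C, CD38, MZB1 and JCHAIN. Of these 1 was called higher, against 2.98% of all 12079 genes tested, and 0 lower, against 0.182%, at an adjusted p under 0.05. At an unadjusted p under 0.05 there were 4, with PIM2, CD38 and ZBTB20 higher and PRDM1 lower. The share of all genes at that cut is not given, so no excess can be read from the 4. Many genes passed it, as edgeR's unadjusted p of 0.0174 for ZBTB20 became 0.175 after adjustment over all genes. DESeq2 called PIM2 higher and PRDM1 lower, where its calls over all genes were 4.78% higher and 1.45% lower, and limma-voom called PIM2 alone. The libraries of the groups did not overlap for 3 members that were higher (13.5% of all genes) and 1 that was lower (11.9%). The median log2 fold change of the 8 was 0.22, and that of all genes tested was 0.01.

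**Figure D1:**
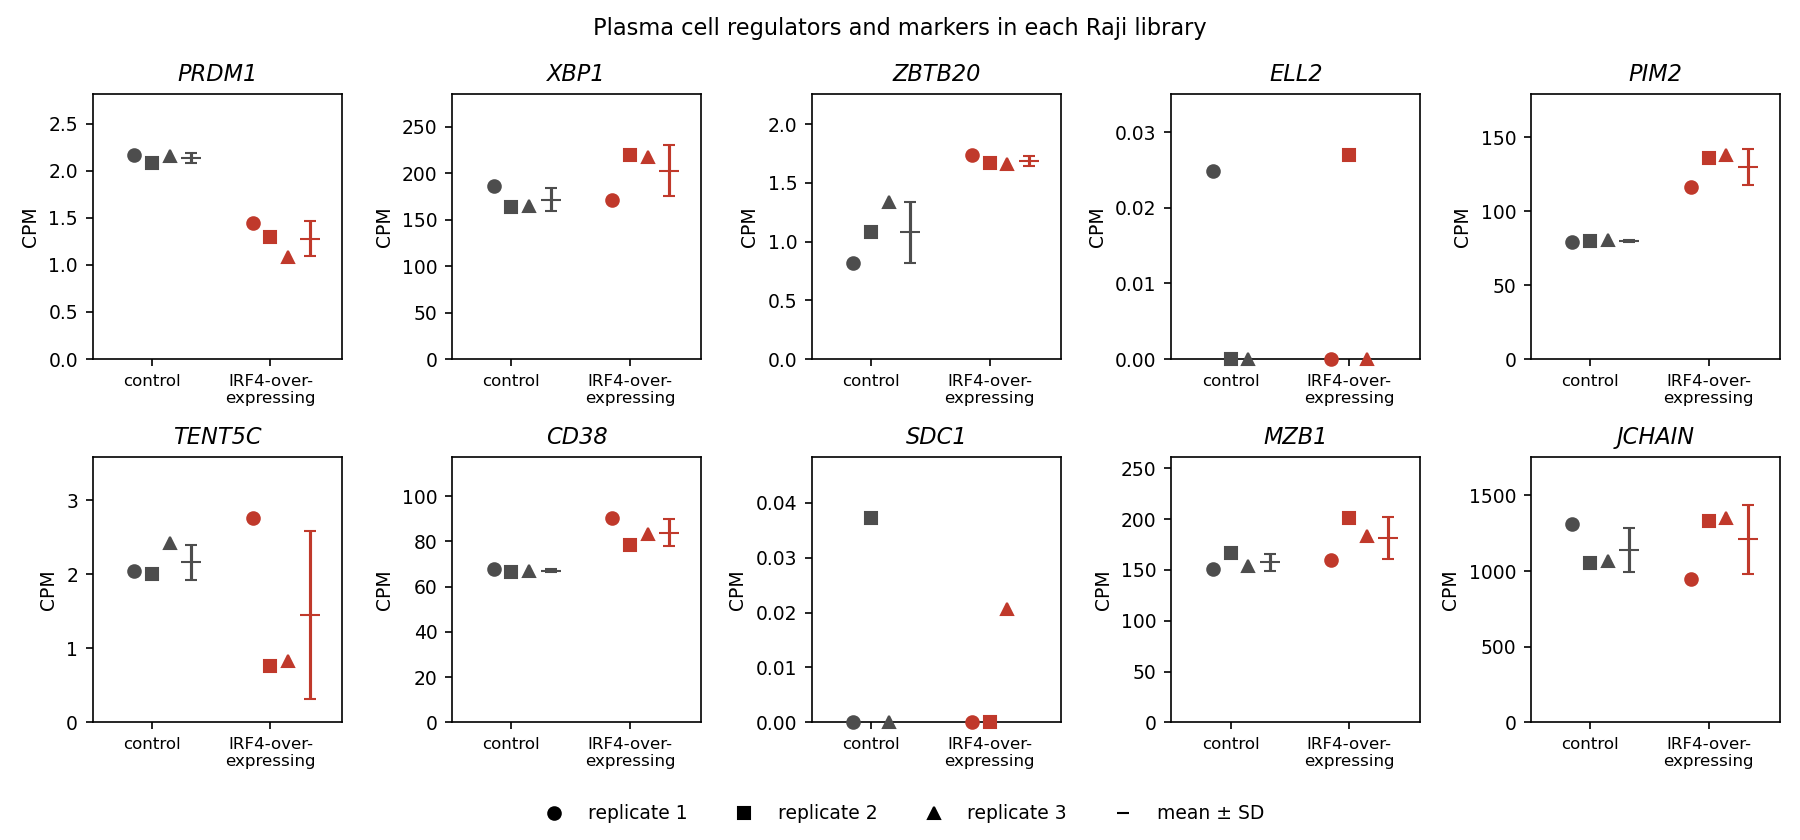
CPM of each gene (vertical axis, from 0) in the 3 control and 3 IRF4-overexpressing libraries, with a symbol for each replicate number and, for the 8 genes tested, the mean and SD beside them. The groups are apart for PRDM1, ZBTB20, PIM2 and CD38, TENT5C has 1 IRF4-overexpressing library far above the other two, and ELL2 and SDC1 have 1 read in 1 library of each group.

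Among the regulators, PRDM1 stayed at a low level. Control replicates 1, 2 and 3 had 2.17, 2.08 and 2.16 CPM (87, 56 and 79 counts). With IRF4 raised, replicates 1, 2 and 3 had 1.45, 1.30 and 1.08 CPM (50, 48 and 52 counts). Every control library was above every IRF4-overexpressing one. The log2 fold change was -0.75 (SE 0.17, 95% interval -1.14 to -0.36), which missed the threshold with edgeR (adjusted p = 0.07). It passed with DESeq2 (adjusted p = 0.034). With a term for the library side the edgeR adjusted p was 0.0455. The sides were read from these counts, so that p-value is too small and adds no support. The fold change also passed when IRF4-overexpressing replicate 1 was left out (edgeR adjusted p = 0.00643), a fit that called 25.1% of all genes lower. It did not pass in the other 5 fits without single libraries (edgeR adjusted p from 0.217 to 0.272) or with limma-voom (adjusted p = 0.0761). It ran from -0.87 to -0.63 without single libraries. IRF4 is known to act on PRDM1 in forming plasma cells, and whether it did so here was not tested.

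ZBTB20, near the detection limit, had values in the opposite direction. Control replicates 1, 2 and 3 had 0.822, 1.08 and 1.34 CPM and the IRF4-overexpressing ones 1.74, 1.67 and 1.66 CPM, with 29 to 80 counts per library. The groups did not overlap, and the control libraries were spread more widely (SD 0.259 against 0.0459 CPM, n = 3 each). The log2 fold change of 0.65 (SE 0.21, 95% interval 0.15 to 1.14) did not pass (edgeR adjusted p = 0.175, DESeq2 adjusted p = 0.18). Without single libraries it ran from 0.47 to 0.84.

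XBP1, the secretory regulator, was abundant in all libraries. Control replicates 1, 2 and 3 had 186, 164 and 165 CPM and the IRF4-overexpressing ones 171, 220 and 218 CPM. The groups overlapped, since IRF4-overexpressing replicate 1 lay below control replicate 1. The log2 fold change was 0.24 (SE 0.12, 95% interval -0.05 to 0.54, edgeR adjusted p = 0.308). Counts per gene do not separate the spliced XBP1 mRNA, which encodes the active factor, from the unspliced one.

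ELL2 and SDC1 were at the floor in both groups. ELL2 had 1 read in control replicate 1, 1 in IRF4-overexpressing replicate 2 and 0 in the others. SDC1, encoding syndecan-1 (CD138), the classical surface marker of plasma cells, had 1 read in control replicate 2, 1 in IRF4-overexpressing replicate 3 and 0 elsewhere. A sum of 1 count over a group allows 0.000244 to 0.0538 CPM in control and 0.000212 to 0.0465 CPM in IRF4-overexpressing libraries (exact Poisson 95% intervals, counting error only). Both sums are under the floor of 3 counts over the group, so no fold change is given. The relatives of ELL2 were expressed, ELL at 22.3 ± 2.95 and 22.5 ± 0.462 CPM and ELL3 at 168 ± 8.76 and 171 ± 4.19 CPM (control and IRF4-overexpressing, SD, n = 3 each). The other syndecan genes were also near 0, with 2 reads of SDC2, 1 control and 1 IRF4-overexpressing read of SDC3, and 1, 1 and 0 control against 6, 14 and 4 IRF4-overexpressing reads of SDC4, none tested. In bulk RNA, fewer cells with a transcript and less of it per cell cannot be told apart.

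PIM2 encodes a serine/threonine kinase that supports survival and protein synthesis and is abundant in plasma cells and myeloma. Control replicates 1, 2 and 3 had 78.8, 80.0 and 80.3 CPM. The IRF4-overexpressing ones had 116, 136 and 138 CPM. The control values lay close together, and each IRF4-overexpressing library was above all of them. The change was 1.63-fold (95% interval 1.39 to 1.92, log2 fold change 0.71, SE 0.10, edgeR adjusted p = 0.0148). Without single libraries the log2 fold change ran from 0.66 to 0.77, but the call was lost in 5 of 6 fits. The edgeR adjusted p was 0.0659, 0.0748 and 0.0803 without control replicates 1, 2 and 3, 0.0571 and 0.0583 without IRF4-overexpressing replicates 2 and 3, and 1.58e-04 without replicate 1. Of 11 listed paralogs of members 5 were tested, and PIM1, a function that overlaps that of PIM2, rose as well, from 108 ± 9.26 to 166 ± 6.14 CPM (SD, n = 3 each; 1.54-fold, edgeR adjusted p = 0.0206), and lost its call in the same 5 fits (highest edgeR adjusted p 0.114). PIM3 was at 55.3 ± 4.28 and 53.3 ± 4.15 CPM (log2 fold change -0.05). Among tested genes averaging 5 CPM or more, the log2 CPM of TAP1, RGS1 and STAT2 was most like that of PIM2 over the 6 libraries (Pearson r of 0.9972, 0.9965 and 0.9962). These points are 2 groups of 3 libraries, and the r values are a description.

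TENT5C encodes a poly(A) polymerase that lengthens the tails of mRNAs for secreted proteins, immunoglobulin among them, and is often mutated in myeloma. Control replicates 1, 2 and 3 had 2.04, 2.01 and 2.43 CPM, and IRF4-overexpressing replicates 1, 2 and 3 had 2.76, 0.756 and 0.829 CPM. Replicate 1 was the highest of all 6 libraries and the other two were the lowest. The log2 fold change was thus -0.60 with a wide error (SE 0.49, 95% interval -1.76 to 0.55, edgeR adjusted p = 0.466). Without IRF4-overexpressing replicate 1 it was -1.45 and passed (edgeR adjusted p = 0.001), in the fit that called 25.1% of all genes lower. Within the side of the library axis that holds 1 IRF4-overexpressing library it was 0.30. Of its paralogs, TENT5A was at 1.42 ± 0.07 and 1.37 ± 0.315 CPM (SD, n = 3 each), and TENT5B and TENT5D had 0 counts in every library.

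CD38, an ectoenzyme that consumes NAD and is carried by germinal centre B cells as well as plasma cells, had 67.9, 66.4 and 67.0 CPM in the control libraries by replicate number. The IRF4-overexpressing ones had 90.3, 78.3 and 83.1 CPM, all above the control libraries. The change of 1.25-fold (95% interval 1.08 to 1.45; log2 fold change 0.32, SE 0.09) did not pass over all genes (edgeR adjusted p = 0.131, DESeq2 adjusted p = 0.0817). With the term for the library side the edgeR adjusted p was 0.0327, which is too small for the same reason as for PRDM1 and adds no support. The change passed when IRF4-overexpressing replicate 1 was left out (edgeR adjusted p = 0.025), where 19.9% of all genes were called higher. It did not pass in the other 5 fits without single libraries (edgeR adjusted p from 0.249 to 0.471) or with limma-voom (adjusted p = 0.131). The sign was positive within both sides of the axis, at 0.25 and 0.44.

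MZB1, a chaperone cofactor of the endoplasmic reticulum that assists antibody assembly, and JCHAIN, the chain that joins IgM and IgA into polymers, were abundant in both groups. MZB1 had 151, 167 and 154 CPM in control replicates 1, 2 and 3 and 160.0, 201 and 183 CPM in IRF4-overexpressing ones. JCHAIN had 1309, 1052 and 1064 CPM and 946, 1332 and 1350.1 CPM. The groups overlapped for both genes. The log2 fold changes were 0.20 for MZB1 (SE 0.11, 95% interval -0.06 to 0.46, edgeR adjusted p = 0.327) and 0.08 for JCHAIN (SE 0.17, 95% interval -0.31 to 0.48, edgeR adjusted p = 0.766). For JCHAIN the 3 libraries on the side of control replicate 1 were the 3 highest, whatever their group.

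Compared per length, as reads per kilobase of the deposited gene width and scaled to library total (RPKM), the members fell into 3 ranges. JCHAIN stood at 783 ± 99.5 RPKM in control libraries (SD, n = 3), place 44 of all genes in the table. MZB1 followed at 173 ± 9.58 RPKM, XBP1 at 64.1 ± 4.60, CD38 at 45.0 ± 0.532 and PIM2 at 36.4 ± 0.375 RPKM. These 5 genes were thus expressed in the control cells, above at least 82.3% of the genes tested. PRDM1, TENT5C and ZBTB20 lay at 0.396 ± 0.0086, 0.378 ± 0.0414 and 0.185 ± 0.0444 RPKM, with fewer than 11% of tested genes below them, and ELL2 and SDC1 at the floor. PRDM1 and TENT5C did not differ beyond their spread. In IRF4-overexpressing libraries PIM2 and CD38 were at 59.4 ± 5.54 and 56.3 ± 4.06 RPKM, within their spread of each other. ZBTB20, TENT5C and PRDM1 were at 0.290 ± 0.00786, 0.253 ± 0.199 and 0.236 ± 0.035 RPKM. ZBTB20 was above PRDM1 in each of these 3 libraries, where PRDM1 had been above ZBTB20 in each control library. In IRF4-overexpressing replicate 1 the order rests on 60 counts of ZBTB20 against 50 of PRDM1. Neither gene's change passed by edgeR with group as the only term, and the order was not tested.

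**Figure D2:**
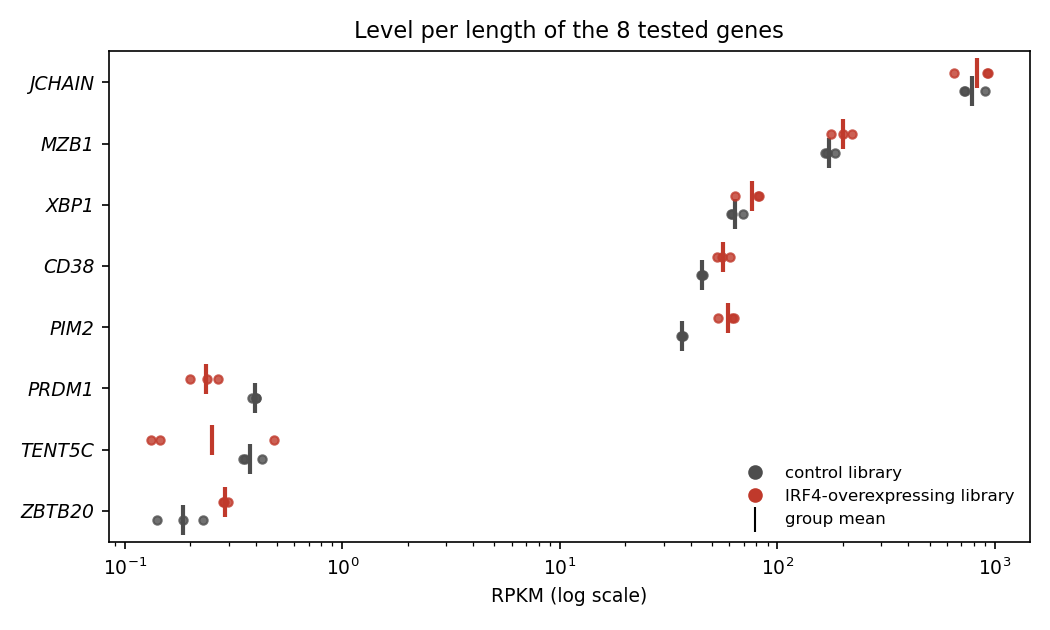
RPKM (horizontal axis, log scale) of the 8 genes tested in each library, with a bar at each group mean and the genes ordered by their control mean. JCHAIN, MZB1, XBP1, CD38 and PIM2 lie above 30 RPKM, and PRDM1, TENT5C and ZBTB20 lie below 0.5 RPKM.

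The library axis bore on several members. With a term for its sides, PIM2 and CD38 were called higher and PRDM1 lower, with 5.87% of all genes called higher and 3.22% lower. Within the side with 1 control library, PIM2, ZBTB20, CD38, XBP1 and MZB1 were called higher (18.2% of all genes) and PRDM1 and TENT5C lower (24.8%). Within the side with 1 IRF4-overexpressing library, PIM2 and CD38 were called higher (5.47%) and 0 members lower (4.37%). PIM2 had log2 fold changes of 0.80 and 0.53 within the 2 sides, PRDM1 -0.88 and -0.55, and ZBTB20 1.02 and 0.51. XBP1 had 0.24 and 0.06, MZB1 0.34 and -0.01, and JCHAIN 0.04 and -0.16. In either side 1 arm is a lone library, assumed to vary as the rest do, and the sides were read from these counts, so those p-values are too small. The side term rests on the same sides. Its p-values are therefore too small as well, and its calls, here and in the lists below, add no support. Without IRF4-overexpressing replicate 1, PIM2, CD38, XBP1 and MZB1 were called higher (19.9% of genes) and PRDM1 and TENT5C lower (25.1%). In that fit the remaining IRF4-overexpressing libraries share a side with control replicate 1 alone, and group and axis mix.

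**Figure D3:**
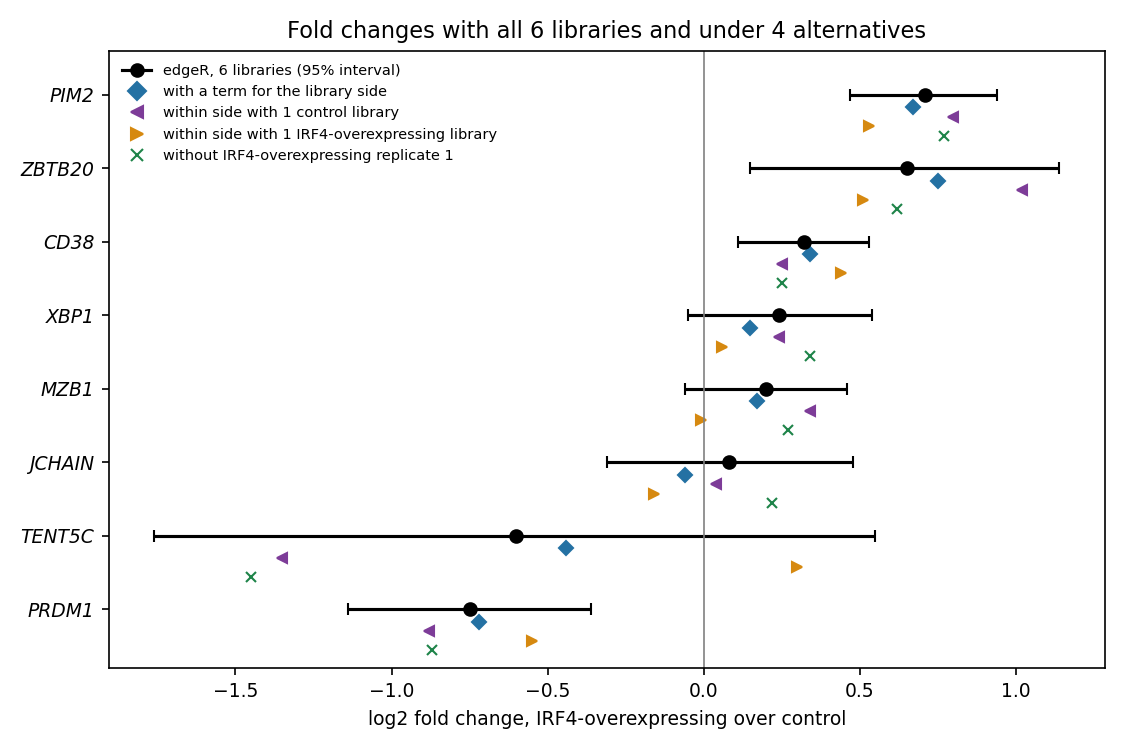
Log2 fold change of IRF4-overexpressing over control libraries (horizontal axis) for the 8 genes tested, with edgeR's 95% interval from all 6 libraries and the values of 4 other fits. The values of PIM2, ZBTB20, CD38 and XBP1 stay above 0 and those of PRDM1 below 0 in the fits drawn. The interval of XBP1 includes 0, and TENT5C runs from -1.45 to 0.30.

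Among other genes of the plasma cell program, the receptor genes SLAMF1, SLAMF7 and CD28 rose. Of 24 listed genes 22 were tested, and 3 rose and 0 fell by edgeR, against 2.98% and 0.182% of all genes. By DESeq2 4 were higher and 1 lower (4.78% and 1.45% of all genes), and by limma-voom 3 and 0. An unadjusted p under 0.05 gave 4 higher and 1 lower. There is no share of all genes to set beside them, so no excess can be read from these counts. The median log2 fold change was 0.21. This list and those below were chosen with earlier results of these data known, so such counts are a description. SLAMF1, an adhesion and signalling receptor, had 2.79, 1.67 and 2.46 CPM in the control libraries, in order of replicate, and 9.30, 9.10 and 10.2 CPM with IRF4 raised (4.09-fold, edgeR adjusted p = 0.0035). SLAMF7, a myeloma surface marker, had 1.32, 0.967 and 1.12 CPM against 7.01, 4.27 and 3.63 CPM (4.31-fold, edgeR adjusted p = 0.0136). CD28, a costimulatory receptor that plasma cells also carry, had 0 control reads and 50, 72 and 83 IRF4-overexpressing ones. Taking 3 counts over all control libraries as the floor, it was at least 59.1-fold higher. With CD28 at that bound the list's median was also 0.21. SLAMF1 and CD28 passed without each library in turn, and SLAMF7 lost its call without control replicate 1, 2 or 3 (highest edgeR adjusted p 0.0962). All 3 genes lost their calls in a fit with a term for replicate number. With the side term 4 were higher and 1 lower (5.87% and 3.22% of all genes). The additions, named after their values were seen, were CXCR4 (log2 fold change 0.35) and HSP90B1 (-0.35). DESeq2 also called CXCR4 higher (adjusted p = 0.0112) and HSP90B1 lower (adjusted p = 0.049). With group as the only term edgeR called neither (adjusted p = 0.0821 and 0.121). Without IRF4-overexpressing replicate 1, 11 were higher and 4 lower, in a fit that called 19.9% of all genes higher and 25.1% lower.

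Among genes of the B cell stage, which plasma cells shut off, CD83 rose. Of 19 B cell identity genes tested, 1 rose and 0 fell by edgeR, against 2.98% and 0.182% of all genes. At an unadjusted p under 0.05, 6 were higher and 0 lower. There is no share of all genes to set beside them, so no excess can be read from the 6. DESeq2 called 2 higher and 0 lower (4.78% and 1.45% of all genes), and limma-voom also 2 and 0. The median log2 fold change of the list was -0.19. The groups did not overlap for 6 genes that were higher (13.5% of all genes) and 0 that were lower (11.9%). CD83, an activation marker, had 136, 129 and 123 CPM in the control libraries and 206, 251 and 255 CPM with IRF4 raised, and the groups did not overlap. It rose 1.83-fold (edgeR adjusted p = 0.0102) and lost its call without control replicate 2 or 3 (highest edgeR adjusted p 0.0629). With the side term 3 were higher and 1 lower (5.87% and 3.22% of all genes). Beside CD83 these were, named after their values were seen, BACH2 (log2 fold change 0.56), CXCR5 (0.66) and SPI1 (-0.50). CXCR5 was also called by DESeq2 (adjusted p = 0.00292). It had 57.9 ± 7.44 and 87.5 ± 5.22 CPM (control and IRF4-overexpressing, SD, n = 3 each), without overlap. With group as the only term its edgeR adjusted p was 0.05 after rounding and did not pass. In the fit that left out IRF4-overexpressing replicate 1, 6 of the 19 were higher and 11 lower, where 19.9% and 25.1% of all genes were.

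Of the genes that XBP1 is known to activate, most had values below 0, and calls depended on the fit. Of 25 tested, 0 passed by edgeR with group as the only term or by limma-voom. At an unadjusted p under 0.05, 7 were lower and 0 higher. The share of all genes at that cut is not given, so no excess can be read from the 7. By DESeq2 3 were lower (1.45% of all genes). These 3, named after their values were seen, were the folding and secretory genes PDIA4, SDF2L1 and MANF, with log2 fold changes of -0.39, -0.45 and -0.27. With the side term 4 were lower and 0 higher (3.22% and 5.87% of all genes), the same 3 and the chaperone gene DNAJC3, also named after its value was seen (log2 fold change -0.29). The groups did not overlap for 10 genes that were lower (11.9% of all genes) and 1 that was higher (13.5%). The list's median was -0.17, with 8 positive and 17 negative values, and without IRF4-overexpressing replicate 1, 2 were higher and 11 lower (19.9% and 25.1% of all genes). In the super elongation complex, in which ELL2 works, 0 of 10 genes passed by edgeR, DESeq2, limma-voom or an unadjusted p under 0.05, and 3 were lower (25.1% of all genes) without IRF4-overexpressing replicate 1. The median was -0.02.

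**Figure D4:**
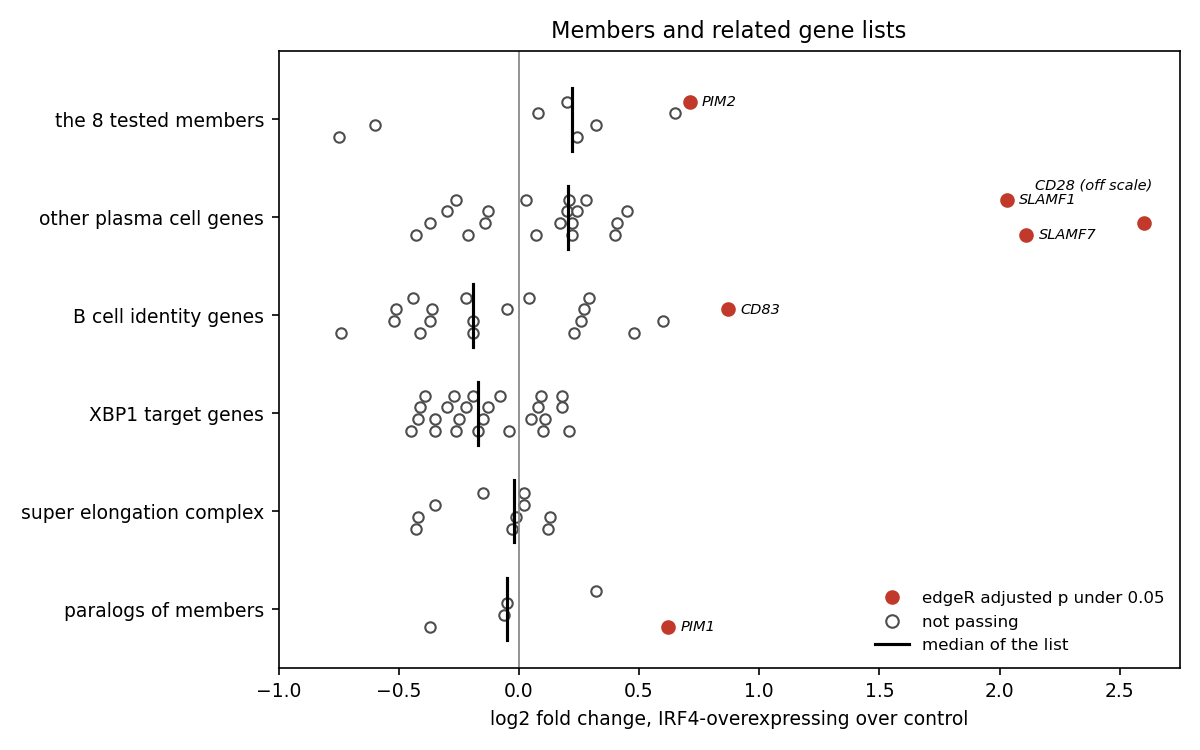
Log2 fold change of IRF4-overexpressing over control libraries (horizontal axis) for the tested genes of each list, filled where edgeR's adjusted p was under 0.05, with a bar at each median. CD28 is drawn at the right edge because its control libraries had 0 counts, and the XBP1 target genes hold 0 filled points in this fit.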

How the data were processed

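The authors deposited raw counts per gene, 1 column per library, unpooled and unscaled, as the whole numbers and differing totals show. A further deposited column, of another unit, gives 1 width per gene. The genome builds are mm9 and hg19 per the submitters' processing notes. The aligner, counter, annotation and strand setting are not given in the sources used here, so reads of overlapping genes cannot be checked. Control columns are headed WT, and per the labels' protocols these cells received empty vector.

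Identifiers were matched to RefSeq symbols (GRCh38.p14), for 23308 of 23459 genes. The test was edgeR's quasi-likelihood F-test (version 4.0.16 in R 4.3.3), two-sided, after TMM scaling and filterByExpr, with group as the only term, over 12079 genes, with Benjamini-Hochberg adjustment over all of them and a threshold of 0.05. SE is the absolute log2 fold change over the square root of F. The alternatives were other scalings and filters, DESeq2 1.42.0, limma-voom (limma 3.58.1), a replicate block, a term for the library side (sign of the first principal component of log2 CPM around group means), fits within sides, and leaving out each library. The scripts were tested on simulated data. No replicates were taken for 1 library deposited again (chi-square per gene of 6.73 to 196). Matplotlib 3.10.9 drew the figures.

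The members and lists were chosen with earlier results of these data known. The genes named are IRF4, the 10 members, the called genes of each list, partners or markers a result turns on, and the 3 genes most like a called member. 1 gene of the B cell identity list is not reported here and was left out of that list's counts.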

Additional observations from a re-analysis of the deposited data

How the results depend on the processing

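PIM2 kept its direction in every alternative run, and its call with other scalings and filters, DESeq2 and limma-voom. It also passed with the side term and within each side, but the sides were read from these counts and each has a lone library in 1 arm, so those p-values are too small and add no support. Same-numbered libraries did not deviate together (r of -0.649, -0.219 and -0.467), and 0 of 3 control libraries correlated best with their own number. The library axis held 74.3% of the within-group variance, so these r values largely reflect it. They cannot show whether the numbers pair the libraries. With the replicate block PIM2 had 0.70 (edgeR adjusted p = 0.176), 0 members were called, and 3 genes were higher and 0 lower. SLAMF1, SLAMF7, CD28, CD83, PIM1 and ITGAM lost their calls with that block as well. Over all genes, against 360 higher and 22 lower, DESeq2 called 577 and 175, the side term 709 and 389, the side with 1 control library 2193 and 2999, the side with 1 IRF4-overexpressing library 661 and 528, and unscaled library sizes 13 lower. Without single libraries 120 to 2436 were higher and 3 to 3071 lower.

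Members called higher numbered 2 with the side term, 5 and 2 within the sides with 1 control and 1 IRF4-overexpressing library, and 0 to 4 without single libraries. Members called lower numbered 1 with DESeq2, 1 with the side term, 2 within the side with 1 control library, and 0 to 2 without single libraries. The log2 fold change of PRDM1 passed with DESeq2 (-0.77), the side term (-0.72) and the side with 1 control library (-0.88). That of CD38 passed with the side term (0.34) and within the sides (0.25 and 0.44). Without IRF4-overexpressing replicate 1, PRDM1 (-0.87), XBP1 (0.34), TENT5C (-1.45), CD38 (0.25) and MZB1 (0.27) passed. That fit called 19.9% of all genes higher and 25.1% lower. PIM2 kept its call in 1 of the 6 fits without single libraries. Within the side with 1 control library XBP1 (0.24), ZBTB20 (1.02), MZB1 (0.34) and TENT5C (-1.35) also passed. The sign turned within the other side for TENT5C (0.30), MZB1 (-0.01) and JCHAIN (-0.16), and for JCHAIN with the side term (-0.06) and without IRF4-overexpressing replicate 3 (0.00 after rounding). The cause was not tested. Without single libraries the ranges were -0.87 to -0.63 for PRDM1, 0.19 to 0.34 for XBP1, 0.66 to 0.77 for PIM2, -1.45 to -0.29 for TENT5C, 0.25 to 0.38 for CD38, 0.13 to 0.27 for MZB1 and 0.00 to 0.22 for JCHAIN. Without length scaling the order of control levels changed, with XBP1 in place 2, MZB1 3, PIM2 4, CD38 5, TENT5C 6 and PRDM1 7. ZBTB20, PRDM1 and TENT5C rest on 28 to 95 counts per library.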
